A study of Mus musculus with 4 samples.

Results

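The alpha and beta crystallins Cryaa, Cryab, Cryba1, Cryba2, Cryba4, Crybb1, Crybb2 and Crybb3 were examined in RNA-seq of mouse retina, by their gene symbol in a table of 18471 genes. The table gave values for 7 of the 8 genes, and all 7 passed the filter on low counts. Crybb2 is not analysed here. The 4 libraries came from retinas of single genotyped embryos at embryonic day 19, 2 labelled wild-type and 2 labelled Foxn3KO. The Foxn3KO embryos have the genotype Foxn3-/- with exon 3 removed, from the C57BL/6NJ-Foxn3em1(IMPC)Bay/Mmnc line. The background strain of the wild-type embryos is not given in the sources used here, and the labels name no agent for either group.

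Crystallins are the abundant soluble proteins of the lens fibre cell, where their close packing gives a clear and refractive cytoplasm. The alpha crystallins are small heat shock proteins that hold unfolding proteins in solution; Cryaa is largely a lens gene, whereas Cryab is also made in muscle, heart and glia. The beta crystallins, acidic (Cryba) or basic (Crybb), form oligomers and share a fold with the monomeric gamma crystallins. In the eye these genes mark the lens, which lies next to the retina, although crystallins are also made at lower levels in retinal cells. Maf-family transcription factors bind crystallin promoters in the lens.

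Total counts per library ranged from 22543531 to 29360129, and 3 counts corresponded to 0.103 to 0.134 CPM (counts scaled to a common library size with TMM factors). Counts of Foxn3 were 2421 and 2712 for the wild-type pair against 4181 and 3219 for the Foxn3KO pair; gene counts do not resolve exon 3, so each direction below rests on the labels. Wild-type replicate 1 stood apart from the other libraries. It had 83073 Xist counts against 9 to 19 elsewhere, and 0 counts of the Y-linked gene Ddx3y against 1780 to 2317. Values of the members are therefore also given with each wild-type library left out. Fits with any library left out take the spread mostly from other genes, so a call from them does not measure the spread between embryos. The retinal identity genes had a like summed level in all libraries. The 11 genes, led by Otx2, Rax and Neurod1, summed to 2243 and 2273 CPM in wild-type and 2291 and 2323 CPM in Foxn3KO. In the edgeR fit described below, 3 of the 11 were called, where 21.9% of all tested genes were. Six6 (log2 fold change 0.14) and Elavl4 (0.21) were higher in Foxn3KO and Isl1 (-0.23) was lower. DESeq2 called Elavl4 and Isl1.

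The stretch before the transcription start is shown for the 6 measured members with a RefSeq entry, so that the letters they share can be read beside their counts. Each is 250 bases long and comes from RefSeq on GRCm38.p6, a different build from the mm39 named in the submitters' processing notes. The coordinates are chr17:31677681-31677930 (plus strand), chr11:77725294-77725543 (minus), chr1:74893144-74893393 (minus), chr5:112252519-112252768 (minus), chr5:112255570-112255819 (plus) and chr5:113081585-113081834 (minus). Capitals mark matches, on either strand, to any of 5 short motifs. The first is TGCTGA, core letters of the element that Maf factors bind, and another is TGANTCA, the letters bound by AP-1. The heat shock element was searched as GAANNTTC. Letters bound by Sox factors were searched as AACAAT, and the TATA box of the core promoter was searched as TATAAA.
Cryaa: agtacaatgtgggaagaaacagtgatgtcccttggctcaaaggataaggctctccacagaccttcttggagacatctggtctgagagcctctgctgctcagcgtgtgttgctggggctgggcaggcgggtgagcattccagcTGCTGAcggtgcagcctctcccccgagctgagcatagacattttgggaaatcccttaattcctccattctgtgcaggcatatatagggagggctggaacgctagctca
Cryba1: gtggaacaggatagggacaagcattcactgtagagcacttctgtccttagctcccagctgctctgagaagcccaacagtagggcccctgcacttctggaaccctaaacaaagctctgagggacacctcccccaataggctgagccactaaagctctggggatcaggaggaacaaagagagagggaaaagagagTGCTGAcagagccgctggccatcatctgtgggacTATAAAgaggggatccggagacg
Cryba2: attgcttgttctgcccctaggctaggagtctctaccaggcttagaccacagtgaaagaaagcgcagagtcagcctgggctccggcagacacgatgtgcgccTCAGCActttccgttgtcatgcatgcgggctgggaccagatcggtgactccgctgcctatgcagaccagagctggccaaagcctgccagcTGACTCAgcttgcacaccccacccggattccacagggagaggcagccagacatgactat
Cryba4: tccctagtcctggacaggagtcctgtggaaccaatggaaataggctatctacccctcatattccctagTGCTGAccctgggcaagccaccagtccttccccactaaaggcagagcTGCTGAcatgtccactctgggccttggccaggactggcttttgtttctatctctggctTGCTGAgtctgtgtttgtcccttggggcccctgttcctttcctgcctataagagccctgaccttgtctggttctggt
Crybb1: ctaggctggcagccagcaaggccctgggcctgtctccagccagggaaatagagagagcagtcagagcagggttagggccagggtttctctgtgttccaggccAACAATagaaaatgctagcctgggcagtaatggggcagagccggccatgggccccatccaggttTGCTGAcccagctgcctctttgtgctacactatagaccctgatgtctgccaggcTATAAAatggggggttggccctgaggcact
Crybb3: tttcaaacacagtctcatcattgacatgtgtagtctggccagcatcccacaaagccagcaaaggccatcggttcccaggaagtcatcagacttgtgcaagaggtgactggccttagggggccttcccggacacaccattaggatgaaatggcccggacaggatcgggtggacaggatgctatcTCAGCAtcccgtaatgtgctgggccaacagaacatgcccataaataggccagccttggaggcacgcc
The RefSeq table matched 7 of the 8 members, all but Cryab. TGCTGA or its reverse complement occurred in 6 of these 7 stretches, against 16.1% of 32851 RefSeq promoter stretches of the same length. In Cryaa it spans the bases 108 to 103 before the start, in Crybb1 84 to 79 and in Cryba1 57 to 52. Crybb3 carries it on the other strand, 67 to 62 bases before the start, and Cryba4 carries it 3 times. TATAAA occurred in Cryba1 and Crybb1, against 12.4% of all stretches, and AACAAT in Crybb1, against 9.42%. TGANTCA was found in Cryba2, against 6.75%, and GAANNTTC in none of the 7, against 6.69%. None of these searched letters overlapped each other in the printed stretches.

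All 7 crystallins had their lowest level in wild-type replicate 1, and 6 of them were higher in both Foxn3KO libraries than in either wild-type library; 29.9% of 17300 tested genes did the same. In the edgeR quasi-likelihood fit, with p-values adjusted over every tested gene, 6 of the 7 rose in the Foxn3KO pair and none fell. Among all tested genes 21.9% were called in either direction and 12.3% were called higher. The median log2 fold change was 1.86 over the 7 members and -0.0047 over all tested genes. The median over the members was 0.90 with wild-type replicate 1 left out, 6.56 with replicate 2 left out and 4.46 by limma-voom. DESeq2 called 1 of the 7, Cryab, where it called 16% of 15248 genes in either direction and 10.1% higher. Without wild-type replicate 1 edgeR called 5 of the 7, all higher, where it called 24.3% of all genes and 13.4% higher; without wild-type replicate 2 it called all 7 higher, where it called 15.6% of all genes higher. In bulk tissue, more cells that make a transcript and more RNA per cell cannot be told apart.

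**Figure D1:**
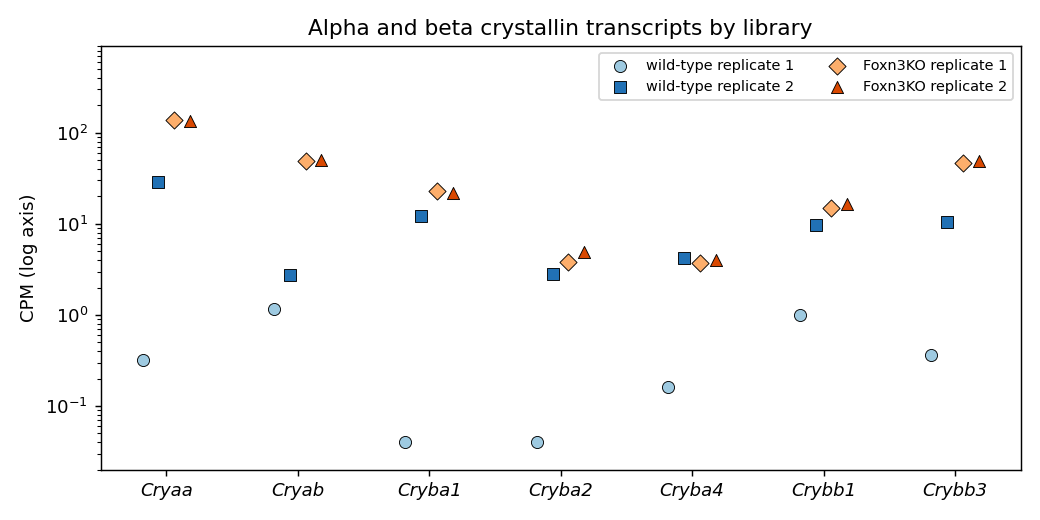
Level of each alpha and beta crystallin in CPM (log axis) in each of the 4 libraries, with 1 point per library. The Foxn3KO points lie close together for every gene, wild-type replicate 1 is lowest throughout, and wild-type replicate 2 lies near the Foxn3KO points for Cryba4 and far below them for Cryab.

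The alpha crystallins are described first. Cryaa (ENSMUSG00000024041) gave 8 and 776 counts for wild-type replicates 1 and 2, against 4055 and 3053 for the Foxn3KO pair, or 0.323, 28.6, 139 and 136 CPM. The groups did not overlap, but the wild-type libraries differed from each other by a factor of 88.5 (95% counting interval 44.7 to 205.8). The mean was 14.4 ± 19.97 CPM in wild-type and 138 ± 2.07 CPM in Foxn3KO (SD, n = 2 each). The log2 fold change came to 3.24 (SE 0.648, edgeR adjusted p = 0.00141; DESeq2 adjusted p = 0.332) and was 2.27 when wild-type replicate 1 was left out and 8.72 when replicate 2 was. Set against wild-type replicate 2 alone, both Foxn3KO libraries together were 4.83 times higher (interval 4.49 to 5.21), and against wild-type replicate 1 alone 428 times (217 to 991).

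Cryab (ENSMUSG00000032060) was low in both wild-type libraries. Its counts were 29 and 74 for the wild-type pair against 1431 and 1119 for the Foxn3KO pair, or 1.17, 2.72, 49.1 and 49.97 CPM. The wild-type libraries differed by a factor of 2.33 (95% counting interval 1.497 to 3.71), the smallest such factor among the 7 members. The rise from 1.95 ± 1.10 to 49.6 ± 0.582 CPM (SD, n = 2 each) was a log2 fold change of 4.65 (SE 0.175, edgeR adjusted p = 8.38e-13; DESeq2 adjusted p = 2.93e-15), or 4.18 with wild-type replicate 1 left out and 5.40 with replicate 2 left out. Both Foxn3KO libraries together were 18.2 times (14.4 to 23.2) higher than wild-type replicate 2 and 42.3 times (29.4 to 63.3) higher than wild-type replicate 1. In the authors' deposited table, Cryab is also the 1 member with an adjusted p under 0.05 (2.93e-15, log2 fold change 4.54); the other 6 have log2 fold changes between 0.0196 and 0.0554 there and adjusted p-values from 0.243 to 0.832. The adjusted p-values of the DESeq2 fit here equal those of that table to 3 digits; how its fold changes were scaled is not given in the sources used here.

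Cryab is also a glial gene and a small heat shock protein, so both lists were set beside it. Of 10 astrocyte and Muller glia genes, 2 rose and 3 fell by edgeR, and their summed level was 1252 and 1269 CPM in wild-type and 1286 and 1291 CPM in Foxn3KO. The list was led by Glul, glutamine synthetase (log2 fold change 0.05, not called), Vim, the filament protein of progenitors and glia (0.37, edgeR adjusted p = 2.01e-06), and Slc1a3, the glial glutamate transporter (-0.40, edgeR adjusted p = 1.78e-06). The other genes called were Gfap, the astrocyte filament protein (-1.02, edgeR adjusted p = 7.17e-08), Rlbp1, a retinoid-binding protein of glia and pigment epithelium (-0.30, edgeR adjusted p = 0.00349), and Aldh1l1, an astrocyte folate enzyme (0.88, edgeR adjusted p = 0.00366; DESeq2 adjusted p = 0.0246). Of the 10 genes, 3 were higher in both Foxn3KO libraries than in either wild-type library, as were 29.9% of all tested genes. These were Glul, Vim and Aldh1l1, the last at 4.33 and 4.29 CPM against 2.14 and 2.54 CPM. Of the 3 other small heat shock proteins tested, Hspb1, Hspb6 and Hspb8, none was called by edgeR or DESeq2 (Hspb1 has no adjusted p in DESeq2), and none had an unadjusted p under 0.05 in either. The part of glial cells in the Cryab difference was not tested. Hspb2, which lies next to Cryab on chromosome 9, is not analysed here.

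Among the acidic beta crystallins, Cryba1 (ENSMUSG00000000724) gave 1 and 330 counts for the wild-type pair against 676 and 491 for the Foxn3KO pair. Its level was 0.0403 and 12.2 CPM in wild-type against 23.2 and 21.9 CPM in Foxn3KO. The Foxn3KO libraries lay above both wild-type libraries, with a log2 fold change of 1.86 (SE 0.579, edgeR adjusted p = 0.0284; DESeq2 adjusted p = 0.701). Leaving out wild-type replicate 1 gave 0.90, and leaving out replicate 2 gave 8.97. Against wild-type replicate 2 alone the factor was 1.86 (1.65 to 2.11), much smaller than the factor of 301 between the wild-type libraries (53.7 to 11930).

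Cryba2 (ENSMUSG00000006546) gave 1 and 77 counts for the wild-type pair against 110 and 109 for the Foxn3KO pair, which lay above both. A log2 fold change of 1.52 (SE 0.513, edgeR adjusted p = 0.0421; DESeq2 adjusted p = 0.704) was obtained. The call was lost with the earlier edgeR fit (adjusted p = 0.0616) and without wild-type replicate 1 (0.59, edgeR adjusted p = 0.0604), and the value was 6.56 without wild-type replicate 2. Against wild-type replicate 2 alone the factor was 1.5 (1.15 to 1.97). Cryba4 (ENSMUSG00000066975) gave 4 and 114 counts for the wild-type pair against 109 and 91 for the Foxn3KO pair, so that wild-type replicate 2, at 4.20 CPM, lay above both Foxn3KO libraries, at 3.74 and 4.06 CPM. It was the member that was not called, with a log2 fold change of 0.79 (SE 0.515, edgeR adjusted p = 0.309). The sign turned without wild-type replicate 1 (-0.11), and limma-voom called it (2.07, adjusted p = 0.0373). EdgeR gave 4.55 without wild-type replicate 2, and 0.87 and 0.75 without Foxn3KO replicates 1 and 2. Against wild-type replicate 2 alone its factor was 0.925 (0.732 to 1.18).

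The basic beta crystallins Crybb1 and Crybb3 were both called higher. Crybb1 (ENSMUSG00000029343), whose gene is next to Cryba4 on chromosome 5, gave 25 and 264 counts for the wild-type pair against 435 and 373 for the Foxn3KO pair. The groups did not overlap, at a log2 fold change of 1.53 (SE 0.424, edgeR adjusted p = 0.0149; DESeq2 adjusted p = 0.523). This was 0.69 with wild-type replicate 1 left out and 3.95 with replicate 2 left out, and against wild-type replicate 2 alone the factor was 1.61 (1.40 to 1.86). Crybb3 (ENSMUSG00000029352) gave 9 and 283 counts for the wild-type pair against 1354 and 1090 for the Foxn3KO pair, or 0.363, 10.4, 46.5 and 48.7 CPM. Here the Foxn3KO libraries were 4.55 times (4.03 to 5.17) above wild-type replicate 2, close to the factor for Cryaa. The log2 fold change of 3.11 (SE 0.492, edgeR adjusted p = 0.000152; DESeq2 adjusted p = 0.243) became 2.19 when wild-type replicate 1 was left out and 7.01 when replicate 2 was.

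Per gene length, in the FPKM of the authors' table, the order of levels was not the same in all libraries. In wild-type replicate 2 Cryaa was highest at 13.7 FPKM, followed by Crybb1 at 9.83, Cryba1 at 7.60, Cryba4 at 4.99, Crybb3 at 4.45, Cryba2 at 2.37 and Cryab at 1.84. In Foxn3KO replicates 1 and 2 Cryaa again led, at 66.9 and 65.5 FPKM, and Cryab came next, at 33.1 and 33.7. Crybb3 followed at 19.9 and 20.8 FPKM, above Crybb1 at 15.1 and 16.9 and Cryba1 at 14.5 and 13.7, with Cryba4 (4.45 and 4.84) and Cryba2 (3.16 and 4.07) lowest. Cryab thus moved from the last place in wild-type replicate 2 to the second in both Foxn3KO libraries. In wild-type replicate 1 Crybb1 and Cryab were highest, at 1.02 and 0.787 FPKM, and the other 5 lay between 0.0252 and 0.192 FPKM.

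The difference between the wild-type libraries was then compared with that of all genes. Among the 14925 genes that averaged 1 CPM or more, 17 were more than 4-fold higher in wild-type replicate 2 than in wild-type replicate 1, on the scale of CPM + 0.5. These 17 were 6 of the alpha and beta crystallins, 6 gamma crystallins and 5 genes of the Y chromosome. Cryab was not among them and ranked 34 by this ratio, whereas Cryaa and Cryba1 ranked 5 and 6 behind 4 Y-linked genes. Between 2-fold and 4-fold were Crygn and 13 other genes, which included the haemoglobin genes Hbb-bs, Hba-a1 and Hbb-bt and the lens genes Bfsp2 and Mip. Between the Foxn3KO libraries 0 genes were past 4-fold in this direction, and the 7 members differed there by factors of 0.944 to 1.29. The sex pattern and the crystallin level thus differ in the same pair of libraries and cannot be told apart with 1 library of each. Wild-type replicate 2 had the low Xist and high Ddx3y counts of the Foxn3KO libraries, so their ratios to it lie within 1 sex pattern. How much lens tissue each library carried was not tested.

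**Figure D2:**
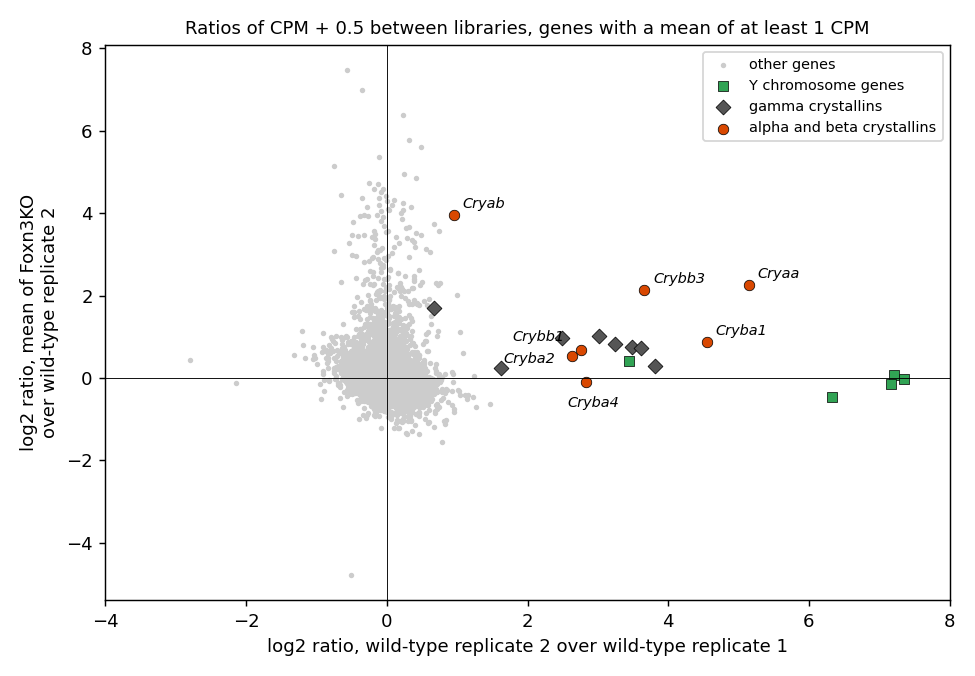
Each point is 1 of 14925 genes: the x axis is the log2 ratio of wild-type replicate 2 over replicate 1, the y axis the log2 ratio of the Foxn3KO mean over wild-type replicate 2, both of CPM + 0.5 (1 gene lies outside the x range). The crystallins other than Cryab and Crygs lie to the right with the Y-linked genes, and Cryaa and Crybb3 lie both right and high. Cryab lies with the genes that are high on the y axis, and Crygs lies left of the other gamma crystallins.

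The gamma crystallins, which are lens fibre proteins and were not used to choose the members, gave a second reading of the same libraries. Their 8 genes summed to 10 counts in wild-type replicate 1, with 2 of them at 0, and to 877 in wild-type replicate 2, 1634 in Foxn3KO replicate 1 and 1267 in Foxn3KO replicate 2. This was 0.403, 32.3, 56.1 and 56.6 CPM. By edgeR 6 of the 8 rose and none fell, with a median log2 fold change of 1.80 (0.86 with wild-type replicate 1 left out, 7.28 with replicate 2 left out and 3.81 by limma-voom); DESeq2 called 0 of the 8, with 1 at an unadjusted p under 0.05. Their part in the differences of the members was not tested. Cryga to Crygf are similar copies in a cluster, and their reads may be split between them. Their single values may therefore not be separate readings, and the sum of all 8 gamma crystallins is used for ratios.

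**Figure D3:**
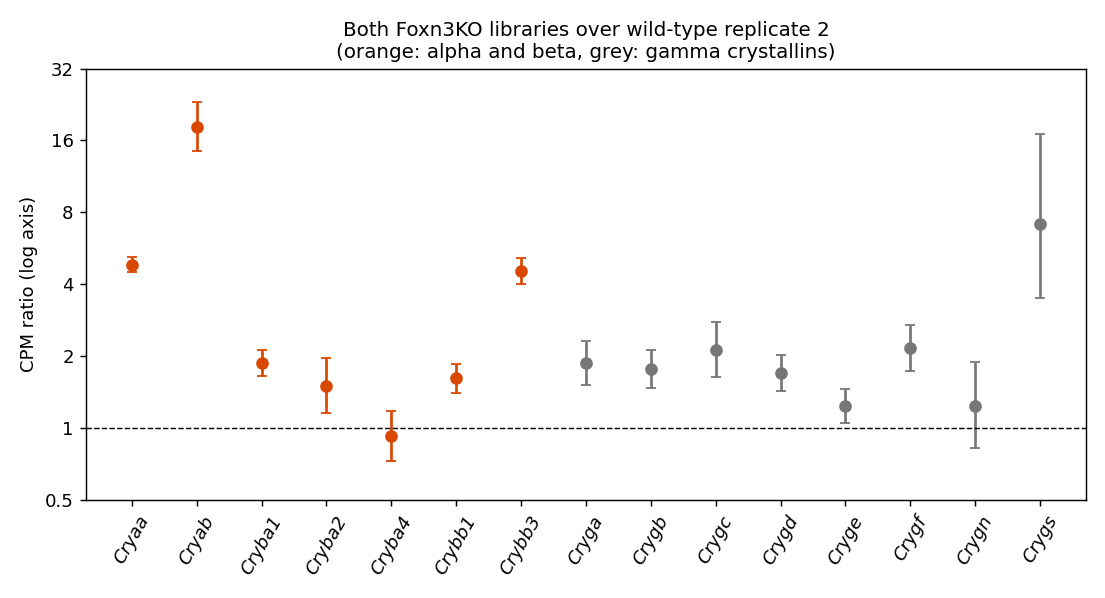
CPM ratio (log axis) of both Foxn3KO libraries together over wild-type replicate 2, with 95% intervals that cover counting error only, for 7 alpha and beta crystallins (orange) and 8 gamma crystallins (grey). Cryba1, Cryba2, Cryba4, Crybb1 and 7 of the gamma genes lie between 0.925 and 2.16, and Cryaa, Crybb3, Crygs and Cryab lie at 4.55 or more.

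Relative to the gamma crystallins of the same library, the members fell into separate ranges, a grouping made after the values were seen and given without a test. Per 100 gamma crystallin counts, wild-type replicate 2 held 37.6 counts of Cryba1, against 41.4 and 38.8 for the Foxn3KO pair. The 95% counting intervals overlap, and the same holds for Crybb1 (30.1, 26.6 and 29.4) and Cryba2 (8.78, 6.73 and 8.60). Set instead against lens membrane and cytoskeleton genes, as given below, these members were lower in Foxn3KO than in wild-type replicate 2. Cryba4 had 13.0 counts per 100 gamma crystallin counts in wild-type replicate 2 and only 6.67 and 7.18 in Foxn3KO. Cryaa went from 88.5 to 248 and 241, and Crybb3 from 32.3 to 82.9 and 86.0, more than a doubling of the ratio. Cryab rose most on this scale, from 8.44 to 87.6 and 88.3. Wild-type replicate 1 has too few gamma crystallin counts to place most members: there Cryba1 had 1 count beside 10 gamma crystallin counts, while Cryab had 29 and Crybb1 25. With the level of the gamma crystallins as a term in the edgeR fit, an alternative chosen after the values were seen, Cryab (4.03), Crybb3 (1.57) and Cryaa (1.45) were still called higher, Cryba4 was called lower (-0.70) and the other 3 were not called, where 12.3% of all tested genes were called higher. That fit leaves 1 residual degree of freedom, and its slope rests on the difference between the wild-type libraries.

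**Figure D4:**
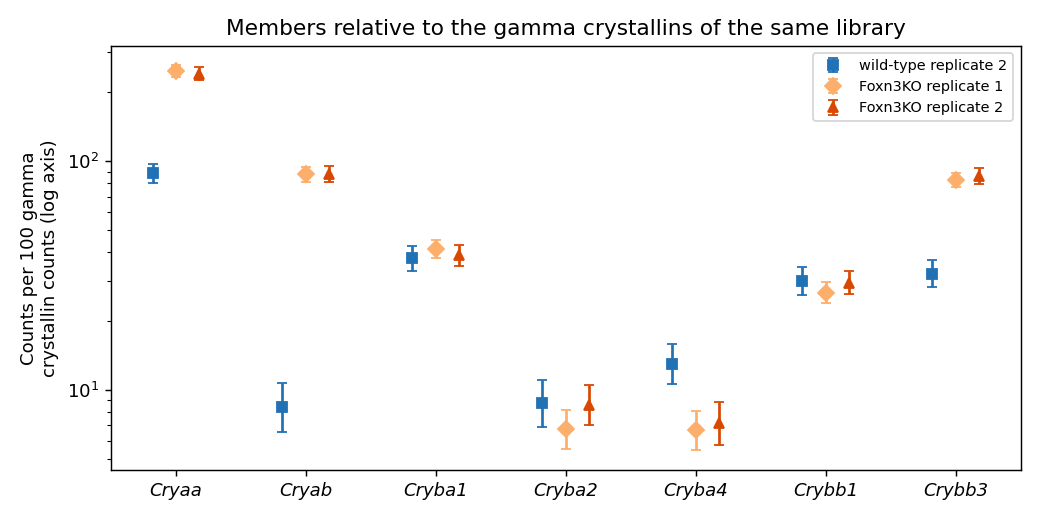
Counts of each member per 100 counts of the gamma crystallins in the same library (log axis), with 95% counting intervals, for the 3 libraries with more than 10 gamma crystallin counts. The intervals of the Foxn3KO libraries overlap for every gene, and the points lie above wild-type replicate 2 for Cryaa, Cryab and Crybb3 and below it for Cryba4.

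Other lens genes, those of the fibre membrane and cytoskeleton, were also mostly higher. Mip, the water channel of lens fibres, had 2 and 18 counts against 113 and 100 (3.42, edgeR adjusted p = 3.22e-06), and the beaded filament genes Bfsp1 (52, 102, 240 and 177) and Bfsp2 (14, 46, 136 and 85) rose by 1.45 and 1.89 by edgeR, Bfsp2 without a DESeq2 call. Slc7a11, a cystine transporter also found in many other cells, had 178 and 170 counts against 521 and 381 (1.38, edgeR adjusted p = 3.88e-08). Hspb1 (27, 17, 25 and 16) was not called and Birc7 (6, 6, 11 and 9) was under the filter. Of 13 genes in this membrane and cytoskeleton list 6 were found and 5 tested; 4 rose and none fell, with a median log2 fold change of 1.45, and the list summed to 11.2 and 13.2 CPM in wild-type and 35.9 and 34.3 CPM in Foxn3KO. Slc7a11 alone gave 7.18 and 6.26 CPM of the wild-type sums. Without Slc7a11 and Hspb1 the list held 74 and 172 counts in wild-type replicates 1 and 2, against 500 and 371 in the Foxn3KO pair. Per count of that sum, wild-type replicate 2 held 1.92 counts of Cryba1, against 1.35 and 1.32 in the Foxn3KO pair. Crybb1 (1.535, 0.87 and 1.005), Cryba2 (0.448, 0.22 and 0.294) and Cryba4 (0.663, 0.218 and 0.245) were lower there too. Cryaa (4.51, 8.11 and 8.23), Crybb3 (1.645, 2.71 and 2.94) and Cryab (0.430, 2.86 and 3.02) were higher. The place of Cryba1, Crybb1 and Cryba2 thus depends on the genes they are set against. Lim2, Gja3, Lgsn, Grifin, Dnase2b, Lctl and Tmem40 are not analysed here.

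Of 12 transcription factors and other regulators of lens development, 9 were found and 8 tested. Foxe3, Pitx3 and Gata3 are not analysed here, and Hsf4 (3, 6, 7 and 9 counts) was under the filter. Most of the tested genes are also used by the retina, and they showed small differences where they were called. By edgeR 4 of the 8 were called, where 21.9% of all tested genes were. Sox1 was not called, with 16 and 46 counts in wild-type against 55 and 41 in Foxn3KO (log2 fold change 0.65, edgeR adjusted p = 0.21). Of 8 tested, Sox2 (log2 fold change 0.17), Six3 (0.18) and Tdrd7 (0.37) rose, and Prox1 fell by 0.16; DESeq2 called Sox2 and Tdrd7 alone, and edgeR called 1 of the 8 with either Foxn3KO library left out. Pax6, with 19004 to 24577 counts per library, had -0.02 (edgeR adjusted p = 0.821), and Maf, which belongs to the family that binds crystallin promoters, had -0.22 (edgeR adjusted p = 0.0826). Genes whose symbols resemble those of the members were also set beside them: of 9, Crym, a thyroid hormone-binding protein, rose by 0.67, Cryz by 0.24 and the cryptochromes Cry1 and Cry2, clock proteins unrelated to crystallins, by 0.22 and 0.37, and Crybg3 fell by 0.29. DESeq2 called only Crym and Cry2 of these, and edgeR called 3 with either Foxn3KO library left out.

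Markers of tissue near the retina were set beside the crystallins. Of 10 tested pigment epithelium genes 4 fell and none rose by edgeR, and the list summed to 92.3 and 122 CPM in wild-type and 77.7 and 77.3 CPM in Foxn3KO; Pmel, a melanosome matrix protein, had a log2 fold change of -0.84 (edgeR adjusted p = 0.000137). Wild-type replicate 2 was the highest library here: without it 2 of these genes were called lower, with Pmel at -0.51 and a list median of -0.08, and without wild-type replicate 1 it was 6, with Pmel at -1.11 and a median of -0.61, against a median of -0.33 over all libraries. Of 6 tested cornea and surface ectoderm genes, Cdh1 rose (log2 fold change 2.23) and Krt18 fell (-0.51), with sums of 27.0 and 27.9 against 30.8 and 32.7 CPM. DESeq2 called Cdh1 alone, and edgeR did so without wild-type replicate 2 or without Foxn3KO replicate 1. Vessel and mesenchyme genes summed to 400.5 and 419 CPM against 400.2 and 395 CPM, with Pecam1 and Rgs5 called higher of 9 tested by edgeR and none by DESeq2, where 2 had an unadjusted p under 0.05. Leaving out Foxn3KO replicate 2 left 1 called. Krt5, Krt14, Trp63, Aldh3a1, Aqp5, Kera, Rpe65, Lum and Twist1 of these lists are not analysed here. The listed genes that were found had counts in every library. As no gene with a sum under 16 counts was held, this was largely set beforehand and does not show the presence of these tissues. Their part in the crystallin differences was not tested.

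The genes whose profile over the 4 libraries was most like the median profile of the members were, in this order, Crygf, Cryga, Crygb, Crygd and Crygc, with Euclidean distances of 0.462 to 0.775 between centred log2(CPM + 0.5) values. Each is a gamma crystallin of the cluster whose reads may be split between copies, so these may not be separate matches. The sixth was Gm29650, a noncoding gene of the Y chromosome with 0, 134, 182 and 164 counts, and the seventh Cryge.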

How the data were processed

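Total RNA (500 ng per library) from retinas of individual embryos was made into strand-specific libraries with molecular identifiers, per the labels' protocols. The authors deposited 1 table with whole-number counts per gene and library, used here as the main values, and with FPKM, used only to order levels between genes. It also holds a mean signal, a log2 fold change and p-values deposited by the authors. The submitters' processing notes name mm39 and DESeq2; aligner, counter, annotation, use of strand and removal of duplicates are not given in the sources used here, so intervals cover counting error only. No gene of the table had a sum under 16 counts.

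After 1 repeated identifier was dropped, 18471 genes remained and filterByExpr kept 17300. They were scaled with TMM and tested with edgeR 4.0.16 (R 4.3.3, quasi-likelihood, two-sided, genotype only, Benjamini-Hochberg, threshold 0.05); DESeq2 1.42.0 and limma 3.58.1 served as alternatives. SEs derive from the fold change and F. The procedure was tested on simulated data. P-values rest on 2 embryos per group, and edgeR draws the spread of each gene toward that of all genes, so they do not measure the spread between embryos for 1 gene alone. For Cryaa the SE was 0.648 by edgeR and 2.05 by DESeq2. An exact permutation test of a single gene cannot go below 0.333. Library ratios carry exact Clopper-Pearson 95% intervals. The check of replicate numbers gave a correlation of 0.00526 over 17300 genes between the replicate differences of both groups.

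The members and lists were chosen with earlier results of these data known. Named were the members, Foxn3, Xist, Ddx3y, Hspb2, every gamma crystallin and lens membrane gene found, the 3 highest genes of each other list and the 5 genes nearest in profile; other genes were named after their values were seen. Some listed genes, and a planned term that needs one of them, are not reported here. Chromosomes come from GENCODE M21 and RefSeq (GRCm38). Figures were drawn with matplotlib 3.10.9.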

Additional observations from a re-analysis of the deposited data

How the results depend on the processing

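Total scaling, RLE factors, no filter, a prior count of 2 and the replicate block each left 6 members called. In that order they called 3976, 3800, 3855, 3795 and 4222 genes, against 3795 in the main fit. Each tested 17300 genes, except the fit with no filter, which tested 18471. The replicate numbers were not shown to pair the samples. DESeq2 called 2437 genes and 1 member; Cryaa (3.25), Cryba1 (1.89), Cryba2 (1.59), Crybb1 (1.56) and Crybb3 (3.14) kept their size without a call. Limma-voom called 7 members, with Cryba4 at 2.07, where it called 3794 of 17300 genes. The earlier edgeR fit called 5 members, with Cryba2 at 1.53, where it called 3737 of 17300 genes. At least 10 counts in every library left 2 members to test, both called, where 3848 of 16002 genes were called. With total scaling, 1916 genes were higher and 2060 lower, against 2123 and 1672.

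With gamma crystallins as a term, added after the values were seen, Cryba1 (-0.12), Cryba2 (-0.18) and Cryba4 (-0.70) turned sign and Crybb1 (0.28) lost its call. This term was not run for other genes or lists. The planned term for the lens membrane genes is not reported here.

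Without 1 library a group has a lone sample with no spread of its own, and edgeR takes the spread mostly from other genes. For Cryaa the SE was 0.0862 without Foxn3KO replicate 1, against 0.648 with all libraries, although the wild-type libraries differed 88.5-fold. Calls from such fits therefore do not measure the spread between embryos. The count of genes called then ran from 2323 to 5067, and that of members from 5 to 7. Log2 fold changes ran from 0.59 to 6.56 for Cryba2, -0.11 to 4.55 for Cryba4, -0.026 to 13.98 for Ddx3y, -0.45 to 0.35 for Hspb1, -0.030 to 0.00049 for Pax6 and -0.056 to 0.12 for Pdgfrb. The cornea median ran from -0.23 to 0.0099. Over all alternatives, 17 list counts moved by more than 1.5 times and 126 did not. The spread between replicates, which is wide for the crystallins, was exceeded by 15 list medians that kept their sign. The cornea median exceeded it in 1 alternative with a change of sign. For other named genes, 18 calls were lost and 20 gained. Members with 1 to 9 counts in wild-type replicate 1 are limited by depth there. The cause of these shifts was not tested.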

Other observations

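Neighbouring genes of the members, by their order in RefSeq on GRCm38.p6, were read as values. Cryba2 lies next to Cfap65, a gene of the motile cilium with 10 and 3 counts for the wild-type pair against 3107 and 2459 for the Foxn3KO pair, while Cryba2 itself had 1, 77, 110 and 109. Cryab lies next to 2310030G06Rik, which had 1, 7, 26 and 29 counts (log2 fold change 2.76, edgeR adjusted p = 0.00215), and beyond it lies Dixdc1, an intracellular Wnt pathway protein, with 1503, 1706, 2775 and 2287 counts (0.68, edgeR adjusted p = 3.00e-08). On either side of Cryba1 lie Nufip2 (-0.23, edgeR adjusted p = 0.0177) and Myo18a (0.15, edgeR adjusted p = 0.04998). Next to Crybb3 lies 2900026A02Rik (0.44, edgeR adjusted p = 2.44e-05). The genes on either side of Cryaa, U2af1 (0.04) and Sik1 (0.19), were not called. Crybb1 and Cryba4, next to each other on chromosome 5, are flanked by Tpst2 (-0.01) and Mn1 (-0.03), neither of which was called.

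Within the summed counts of the 7 members, Cryaa took 40.5% for wild-type replicate 2, against 49.6% and 48.3% for the Foxn3KO pair (exact binomial intervals 38.2% to 42.7%, 48.5% to 50.7% and 47.0% to 49.5%). Cryab took 3.86% there and 17.5% and 17.7% in Foxn3KO, and Cryba1 took 17.2% against 8.27% and 7.76%. In wild-type replicate 1 the members summed to 77 counts, of which Cryab held 29 and Crybb1 25.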
